A study of Mus musculus with 22 samples.

Results

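The transcription factor p53 raises the level of a set of genes when a cell senses DNA damage or certain other stresses, and 10 of those genes were followed in the mouse spinal cord: Cdkn1a, Mdm2, Ccng1, Trp53inp1, Eda2r, Phlda3, Bax, Zmat3, Bbc3 and Plk2. The genes were chosen by name as established p53 targets, with earlier results of these data known. They stand for a stress pathway set beside that of the factor ATF4, and each symbol matched 1 of the 38924 gene IDs in the files. Messenger RNA was sequenced from whole spinal cord of mice aged 7 months on a mixed B6N;B6J background. The allele studied was E196K, a change of 1 amino acid in Yars, the gene for the tyrosyl-tRNA synthetase that charges tyrosine onto its tRNA. HOM libraries came from mice with 2 E196K alleles (10 libraries), HET libraries from mice with 1 E196K allele (6 libraries), and WT libraries from mice with none (6 libraries). In people, E196K in the same enzyme causes a dominant Charcot-Marie-Tooth neuropathy, a disease of peripheral nerves. The labels give no sex and do not say that each library came from a separate mouse, so p-values measure the spread between libraries, which may in part be technical.

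In a resting cell p53 is kept scarce by Mdm2, a ubiquitin ligase that marks it for breakdown, and Mdm4 holds back its activity. Kinases that respond to damaged DNA release p53 from this hold, and p53 then binds DNA as a tetramer at sites made of a pair of half-sites. Its targets stop the cell cycle, repair DNA, start apoptosis or, through Mdm2, switch p53 off again. In neurons, p53 and its apoptotic targets are known for their part in cell death after injury. A p53 protein can be activated with little change in its own mRNA, so the level of target mRNAs is the usual readout in expression data.

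Depth was similar across libraries, from 24.4 M to 42.8 M counts per library, and every member passed the filter on low counts that 16974 genes passed. Levels are given as CPM, counts scaled to a common library total after TMM normalization. Every library held the markers of spinal cord, with 4707 to 6068 CPM summed over 8 neuronal markers. One library stood apart: HOM 3 held 1107 CPM summed over 6 Schwann cell markers, against at most 69.8 CPM in any other library, among them Prx (500.0 CPM, at most 1.31 CPM elsewhere) and Egr2 (24.99 CPM, at most 0.809 CPM elsewhere). It was also the highest library for the markers of fibroblasts (5 genes, 474.9 CPM, at most 64.4 CPM elsewhere, among them Col1a1 at 89.3 CPM, at most 11.8 CPM elsewhere), blood and myeloid cells (6 genes, 1498 CPM, at most 809 CPM), skeletal muscle (5 genes, 13.1 CPM, at most 0.903 CPM) and endothelium (6 genes, 267 CPM, at most 219 CPM). The same library had the lowest summed level of 7 oligodendrocyte markers, 15552 CPM, against 19408 CPM or more in the others, and also the lowest sums for the markers of neurons, motor neurons, astrocytes and microglia. Title numbers in the labels start with 39992 (5 HOM libraries, 1 WT library), 40411 (3 HOM, 1 HET and 2 WT libraries) or 40412 (2 HOM, 5 HET and 3 WT libraries), and the labels do not say what these numbers mark. Xist, the RNA of the inactive X chromosome, was at 416 to 640 CPM in 13 libraries (6 HOM, 2 HET, 5 WT) and at 0.387 CPM or less in 9 (4 HOM, 4 HET, 1 WT). In whole tissue, fewer cells of a type and less RNA per cell cannot be told apart.

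The p53 half-site is a consensus of 10 bases, and it was searched for in the RefSeq promoter windows (GRCm38.p6, 250 bases before to 50 bases after each start site). The consensus is its own reverse complement, so 1 scan covered both strands. Windows were found for 8 of the 10 members, 11 windows in all, and not for Trp53inp1 or Zmat3. A half-site was present in 4 of these 11 windows (36.4%), against 8.36% of all 32851 windows. The 4 stretches that hold one are shown because each holds a full match to the consensus. Full matches are in capitals, and the stretches read along the strand of the gene.

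Cdkn1a, chr17:29090886-29090957, plus strand: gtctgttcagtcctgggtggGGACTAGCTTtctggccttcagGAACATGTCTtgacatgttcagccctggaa
Mdm2, chr10:117710915-117710964, minus strand: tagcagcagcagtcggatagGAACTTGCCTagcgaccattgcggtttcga
Ccng1, chr11:40755442-40755491, minus strand: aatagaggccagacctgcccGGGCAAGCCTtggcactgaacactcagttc
Bax, chr7:45467070-45467119, minus strand: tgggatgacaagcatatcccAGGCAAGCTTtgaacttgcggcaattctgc

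Only the Cdkn1a stretch held 2 full matches close enough to make a pair, with a spacer of 12 bases where up to 13 was allowed. They start at positions -73 and -51 from the more upstream of its 2 RefSeq start sites, which lies 2790 bases before the other. Such a pair was present in 24 of the 32851 windows (0.0731%). Near matches were not marked, such as tgacatgttc directly after the second Cdkn1a half-site. The pair in capitals therefore need not be the one that p53 uses. In the other 3 stretches a single full match starts at position -186 (Mdm2), -185 (Ccng1) or -201 (Bax). Near matches were not marked there either, such as agacctgccc directly before the Ccng1 half-site. A single full match therefore does not mean that p53 has no paired site there. The windows of Phlda3, Bbc3, Plk2 and Eda2r held no full match, which says nothing about near matches or about sites outside them. A match describes the letters, not binding.

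None of the 10 p53 target genes passed the test in any of the 3 genotype comparisons (edgeR quasi-likelihood, Benjamini-Hochberg adjusted p below 0.05 over all 16974 genes). In HOM against WT, 0 of 10 members were called, where 0.0943% of all tested genes were (16 genes). In HET against WT, 0 of 10 were called, where 0% of all genes were, and in HOM against HET, 0 of 10, where 0.106% were (18 genes). DESeq2 and limma on log2 TPM also called 0 of 10 in each comparison, and so did edgeR without HOM 3. At an unadjusted p below 0.05 the members numbered 1 (Phlda3) in HOM against WT, where 5.91% of all genes had such a p, 0 in HET against WT (3.41% of all genes) and 0 in HOM against HET (8.8% of all genes). The median log2 fold change of the members, HOM against WT, was 0.014, and that of all genes was 0.0065. For no member did the libraries of one genotype lie wholly above or below those of another, which 0.124% of all genes did in HOM against WT, 0.141% in HET against WT and 0.23% in HOM against HET.

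The 95% intervals bound the differences in whole spinal cord level that these libraries leave possible. A larger change confined to a cell type that gives little of the RNA was not tested. In HOM against WT the interval of the fold change lay within 1.25-fold in either direction for 7 of 10 members and within 1.5-fold for 10 of 10. In HET against WT the same counts were 8 and 10, and in HOM against HET they were 7 and 10. The widest intervals belonged to Cdkn1a, Trp53inp1 and Eda2r. All 3 comparisons came from 1 fit and share libraries, so they are not independent of each other.

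**Figure D1:**
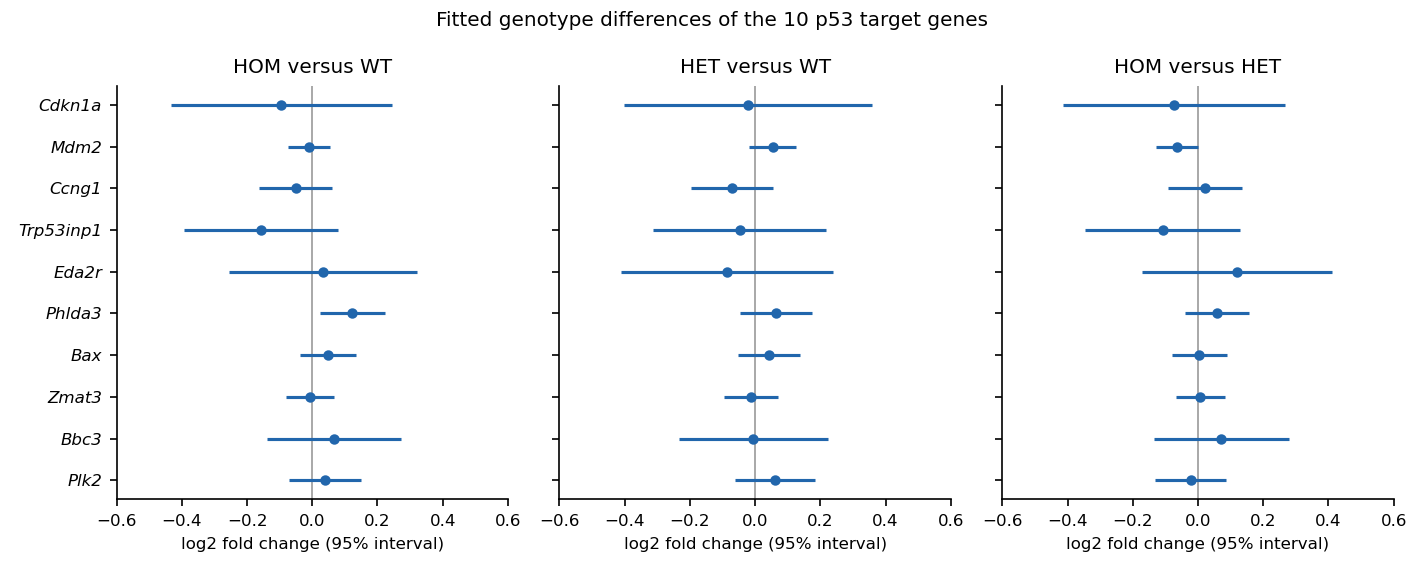
Fitted log2 fold changes (points) with 95% intervals (lines) of the 10 p53 target genes in HOM versus WT, HET versus WT and HOM versus HET, from the fit over 22 libraries. Every interval includes 0 except that of Phlda3 in HOM versus WT, and every interval stays inside 1.5-fold.

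Mdm2 and Ccng1 act back on p53 itself. Mdm2, the ligase that degrades p53 and is itself a p53 target, had a lowest, median and highest level of 42.7, 44.9 and 47.2 CPM in HOM libraries, 43.2, 47.1 and 50.7 CPM in HET libraries and 43.6, 45.1 and 46.4 CPM in WT libraries. Its 22 libraries lay within 1.19-fold of each other, and the ranges of the genotypes overlapped. Its log2 fold change, HOM against WT, was -0.0098 (95% interval -0.07 to 0.05). In HOM against HET it was -0.06 (SE 0.031, edgeR unadjusted p = 0.0504, adjusted p = 0.565), and the highest of all libraries was HET 3. Ccng1, which encodes cyclin G1, a partner of a phosphatase that acts on Mdm2, ran through 44.9, 49.4 and 56.8 CPM in HOM libraries, 46.5, 48.2 and 54.2 CPM in HET libraries and 46.1, 49.0 and 59.2 CPM in WT libraries. WT 6 and WT 5 were its highest libraries, and the medians of the genotypes were close to each other. The log2 fold change of Ccng1 was -0.05 in HOM against WT (95% interval -0.16 to 0.06).

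Cdkn1a encodes p21, the inhibitor of cyclin-dependent kinases through which p53 stops the cell cycle, and it varied most between libraries among the members. Its lowest, median and highest levels were 16.9, 24.1 and 37.7 CPM in HOM libraries, 17.7, 26.8 and 29.5 CPM in HET libraries and 20.3, 24.2 and 39.3 CPM in WT libraries. A single library set the top of the range in each of HOM and WT: HOM 3 at 37.7 CPM, where the next HOM library had 27.0 CPM, and WT 6 at 39.3 CPM, where the next WT library had 25.6 CPM. Its log2 fold change, HOM against WT, was -0.09 (95% interval -0.43 to 0.24), or a fold of 0.937 (0.740 to 1.18). Without HOM 3 it was -0.19, and without WT 6 it was 0.06, with adjusted p-values of 0.818 and 0.945 by edgeR. HOM 3 is the library highest for Schwann cell, fibroblast, blood and myeloid, skeletal muscle and endothelial markers, and the part of these in its Cdkn1a level was not tested. WT libraries, WT 6 included, had at most 67.0 CPM summed over Schwann cell markers and 64.4 CPM over fibroblast markers. Their highest sums were 361 CPM (blood and myeloid), 0.884 CPM (skeletal muscle) and 213 CPM (endothelium). The part of any cell type in the Cdkn1a level of WT 6 was not tested. Within title numbers the HOM minus WT difference of Cdkn1a was 0.14 log2 units under 39992, -0.04 under 40411 and -0.10 under 40412. The first includes HOM 3 and only 1 WT library, and the last includes WT 6. These differences were not repeated without HOM 3 or WT 6.

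**Figure D2:**
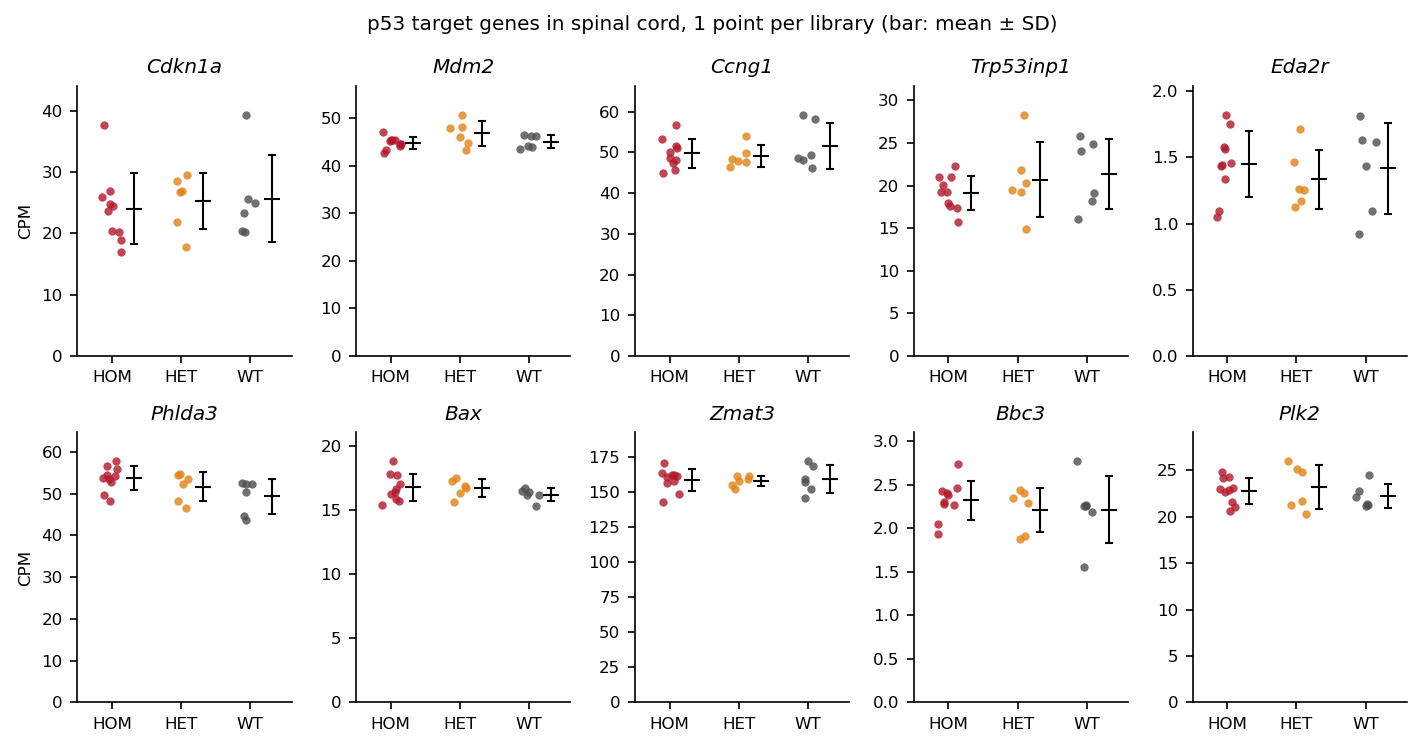
Level in CPM of the 10 p53 target genes in each library of the HOM, HET and WT genotypes (points), with the mean and SD of each genotype beside them (bars); each axis starts at 0. The genotypes overlap in every panel, and the 2 lone points high in the Cdkn1a panel are HOM 3 (37.7 CPM) and WT 6 (39.3 CPM).

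The apoptotic members had overlapping levels in the 3 genotypes. Bax, which forms pores in the outer mitochondrial membrane, had 15.4, 16.5 and 18.8 CPM as its lowest, median and highest level in HOM libraries, 15.6, 16.8 and 17.5 CPM in HET libraries and 15.3, 16.3 and 16.7 CPM in WT libraries. The HOM against WT log2 fold change of Bax was 0.05 (95% interval -0.04 to 0.13). Bbc3, which encodes the BH3-only protein PUMA that sets Bax free to act, was low: 1.94, 2.34 and 2.74 CPM in HOM libraries, 1.88, 2.32 and 2.45 CPM in HET libraries and 1.55, 2.26 and 2.77 CPM in WT libraries. These levels rest on 48 to 96 counts per library, and the HOM against WT log2 fold change was 0.07 (95% interval -0.14 to 0.27). Its highest and its lowest library, WT 3 and WT 5, were of the same genotype.

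Trp53inp1 encodes a nuclear protein that helps p53 favour its apoptotic targets, and Eda2r, on the X chromosome, encodes a receptor of the TNF receptor family. Trp53inp1 had 15.7, 19.2 and 22.3 CPM as lowest, median and highest level in HOM libraries, 14.9, 19.9 and 28.3 CPM in HET libraries and 16.1, 21.6 and 25.8 CPM in WT libraries. HET held both its highest library (HET 3) and its lowest (HET 2). The fitted difference of Trp53inp1 was the largest in size among the members in HOM against WT, a log2 fold change of -0.16 (SE 0.114, edgeR adjusted p = 0.820, 95% interval -0.39 to 0.08). Eda2r was the lowest member, with 1.05, 1.45 and 1.82 CPM in HOM libraries, 1.13, 1.26 and 1.72 CPM in HET libraries and 0.919, 1.52 and 1.81 CPM in WT libraries, from 30 to 71 counts per library. Its interval was wide, -0.25 to 0.32 around a log2 fold change of 0.03 in HOM against WT.

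Phlda3 was the member with the smallest p. It encodes a small protein that competes with the kinase AKT for membrane lipids and so holds AKT back. Its lowest, median and highest levels were 48.3, 54.0 and 57.7 CPM in HOM libraries, 46.5, 52.9 and 54.7 CPM in HET libraries and 43.6, 51.4 and 52.5 CPM in WT libraries. HOM libraries lay higher on the whole, but 2 HOM libraries (HOM 8 and HOM 6) were below the highest 4 WT libraries. The log2 fold change, HOM against WT, was 0.12 (SE 0.048, 95% interval 0.02 to 0.22), with an edgeR unadjusted p of 0.0171 and an adjusted p of 0.815. WT 5 and WT 2 were the lowest WT libraries, and without either the log2 fold change was 0.09 or 0.10 and the unadjusted p was no longer below 0.05. With title number as a covariate the log2 fold change was also 0.09 (SE 0.047, edgeR adjusted p = 0.916), with an unadjusted p of 0.0595. Within title numbers the HOM minus WT difference was 0.08 (39992), 0.09 (40411) and 0.12 (40412) log2 units.

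Zmat3 and Plk2 complete the set. Zmat3, which encodes a zinc finger protein that binds RNA, had the most counts of the members, with 142.8, 160.9 and 170.7 CPM as lowest, median and highest level in HOM libraries, 152.1, 158.1 and 161.1 CPM in HET libraries and 145.8, 158.3 and 171.6 CPM in WT libraries. The HOM against WT log2 fold change of Zmat3 was -0.0062 (95% interval -0.08 to 0.07). Plk2, a polo-like kinase that neurons also induce with activity, had 20.6, 22.9 and 24.8 CPM in HOM libraries, 20.3, 23.3 and 26.0 CPM in HET libraries and 21.1, 21.7 and 24.5 CPM in WT libraries. The fitted log2 fold change of Plk2 was 0.04 for HOM against WT (95% interval -0.07 to 0.15) and 0.06 for HET against WT (95% interval -0.06 to 0.18).

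Set against transcript length, the members covered a wide range of levels. By the deposited TPM, averaged over 22 libraries, Phlda3 was highest (76.6 ± 7.17 TPM, SD, n = 22), and its lowest library (59.3 TPM) lay above the highest library of the next gene. Bax (47.0 TPM), Mdm2 (44.0 TPM) and Zmat3 (43.0 TPM) followed, and each overlapped the next in its range over libraries. Cdkn1a (26.7 TPM) and Ccng1 (26.5 TPM) came next and also overlapped. Plk2 (15.4 TPM), Trp53inp1 (7.21 TPM), Bbc3 (3.32 TPM) and Eda2r (0.693 TPM) each lay apart from its neighbours. The effective length in the deposited tables differed between libraries for some members, from 2301 to 4492 bases for Eda2r and from 845 to 1455 bases for Bbc3, so the TPM of these genes moves with that estimate as well as with the count.

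The members differed widely in how much they varied from library to library. Within genotypes, the SD of log2(CPM + 0.5) of Cdkn1a was 0.31, above that of 94.99% of all tested genes. Trp53inp1 (0.23, above 86.7% of tested genes) and Eda2r (0.21, above 82.1%) came next. Eda2r had only 30 to 71 counts per library, and the part of counting error in its SD was not tested. At the other end were Mdm2 (0.05, above 7.38%), Zmat3 (0.07, above 18.7%) and Bax (0.07, above 19.7%). Cdkn1a and Trp53inp1 had a mean of 24.8 and 20.2 CPM over all libraries, and Bax, with its small spread, had 16.6 CPM.

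**Figure D3:**
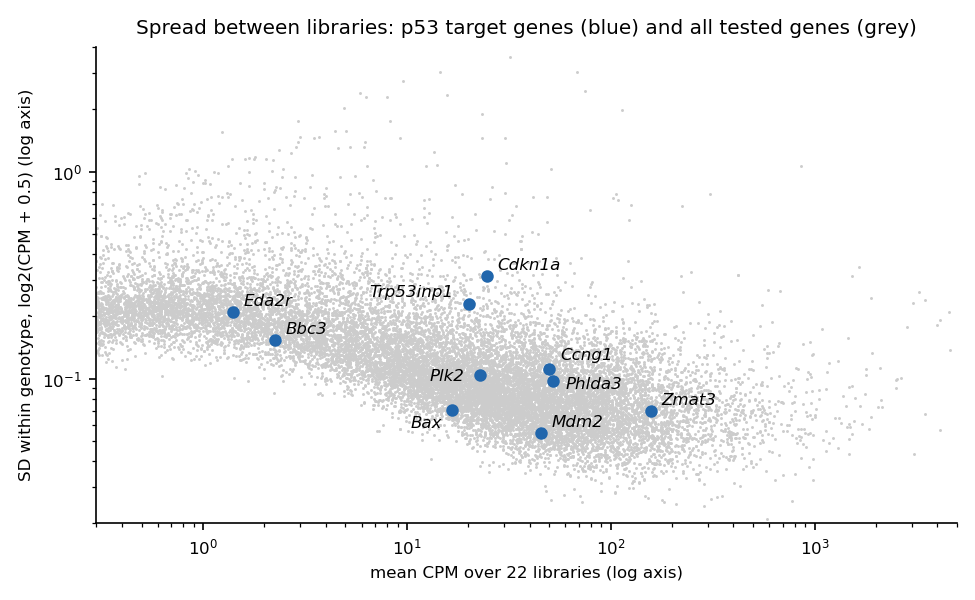
SD between libraries within genotype of log2(CPM + 0.5) against the mean CPM over 22 libraries, for the 10 p53 target genes (blue) and all 16974 tested genes (grey); both axes are logarithmic. Cdkn1a (0.31) and Trp53inp1 (0.23) sit in the upper part of the cloud at their level, and Mdm2 (0.05) sits near its lower edge.

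Some members varied together from library to library. Levels were centred within genotype and correlated for all 45 pairs of members over 22 libraries, with 100000 permutations within genotype and adjustment over the 45 pairs. The median r was 0.07, and 29 of the 45 were positive. In 3 pairs both coefficients passed at an adjusted p below 0.05, and these join Ccng1, Trp53inp1 and Eda2r. Ccng1 and Trp53inp1 gave r = 0.70 (permutation p = 0.00031, adjusted p = 0.006975) and rho = 0.76 (permutation p = 0.00014, adjusted p = 0.00607). Trp53inp1 and Eda2r gave r = 0.73 (permutation p = 0.00031, adjusted p = 0.006975) and rho = 0.76 (permutation p = 0.00027, adjusted p = 0.00607). Ccng1 and Eda2r gave r = 0.74 (permutation p = 0.00083, adjusted p = 0.0124) and rho = 0.69 (permutation p = 0.0015, adjusted p = 0.0225). Without the 2 libraries farthest from the median of the first gene, r was 0.74, 0.72 and 0.66 in the same order.

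Other genes reached correlations as high, and the 3 calls depended on single libraries. Of all tested genes, 1.03% had an r to Ccng1 as high as that of Trp53inp1. An r to Trp53inp1 as high as that of Eda2r was found for 3.25%, and one to Ccng1 as high as that of Eda2r for 0.46%. Negative r of the same size were not counted. With the other gene of each pair as the reference, the shares were 4.15%, 0.23% and 0.15% in the same order. Each share counts the partner itself. Without HET 3, the library where Trp53inp1 was highest, r was 0.66, 0.69 and 0.71, and no pair passed (adjusted p = 0.063 for each r). With levels centred within genotype and title number, r was 0.76, 0.71 and 0.84, and the larger adjusted p of each pair was 0.111, 0.117 and 0.117. Within the 13 libraries with high Xist r was 0.62, 0.58 and 0.67, and within the other 9 it was 0.80, 0.82 and 0.71. With log2(TPM + 1) in place of CPM r was 0.61, 0.45 and 0.60.

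**Figure D4:**
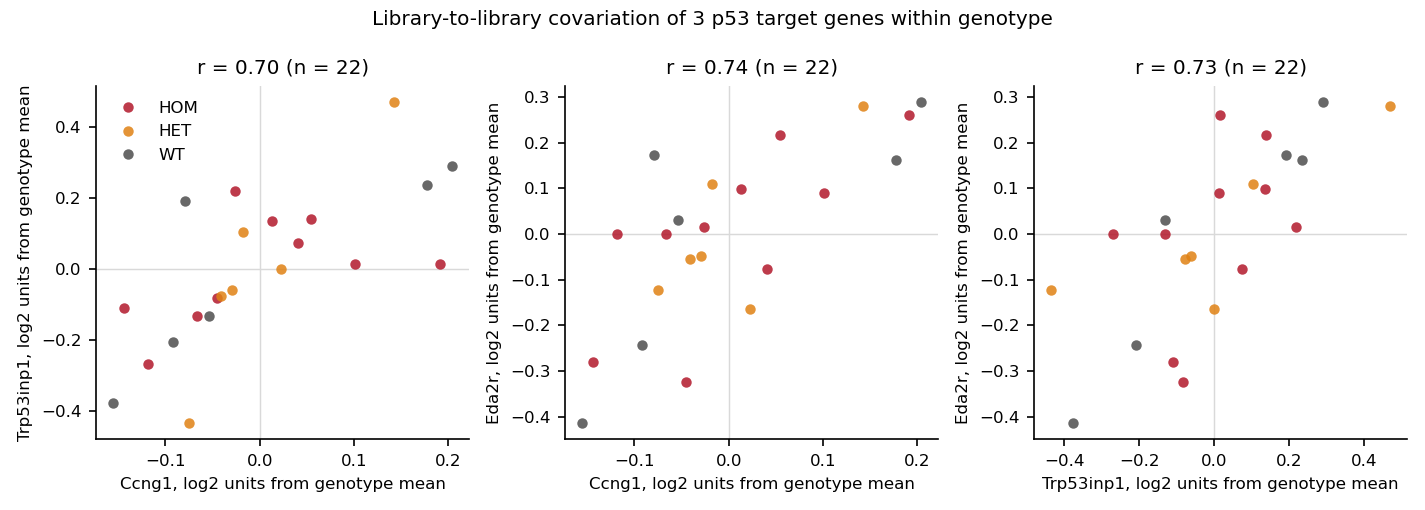
Deviation of each library from its genotype mean in log2(CPM + 0.5) for Ccng1 against Trp53inp1, Ccng1 against Eda2r and Trp53inp1 against Eda2r, with HOM, HET and WT libraries in different colours. The points run upward in each panel (r = 0.70, 0.74 and 0.73 over 22 libraries), and the HET library at the upper right of the panels is HET 3.

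The Xist level moved with some members, though none passed the test. In a fit with genotype and the Xist class (13 high against 9 low libraries), 0 of 10 members were called, where 0.259% of all genes were. Mdm2, Ccng1, Plk2, Zmat3, Trp53inp1 and Eda2r had an unadjusted p below 0.05, where 13.4% of all genes did. Their fitted log2 differences, high minus low, ran from -0.26 (Eda2r, edgeR adjusted p = 0.373) and -0.24 (Trp53inp1, edgeR adjusted p = 0.272) to -0.07 (Mdm2, edgeR adjusted p = 0.232). The genotypes held unequal shares of high Xist libraries, and with Xist as a covariate the HOM against WT log2 fold change of Eda2r was -0.02, in place of 0.03.

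Members were also set against 32 other p53 target genes over the same libraries (320 pairs, centred within genotype, adjusted over the 320). Both coefficients passed in 7 pairs, 5 of them positive. Cdkn1a went with Sesn1, a stress-induced regulator of mTORC1 signalling (r = 0.84, permutation p = 2e-05, adjusted p = 0.0064; rho = 0.75, permutation p = 0.0001, adjusted p = 0.016). Without HOM 3 that r was 0.78, without the 2 farthest libraries 0.65, and within genotype and title number 0.88. Ccng1 went with Rrm2b, a ribonucleotide reductase subunit (r = 0.74), Trp53inp1 with Dram1, a lysosomal protein (r = 0.68), and Bbc3 with Gtse1 (r = 0.76) and Tap1 (r = 0.63). The negative pairs were Trp53inp1 with Plk3 (r = -0.71) and Plk2 with Abhd4 (r = -0.65). In these 6 pairs the adjusted permutation p ran from 0.0192 to 0.0339 for r and from 0.016 to 0.0492 for rho. Without the 2 farthest libraries r was 0.64 to 0.66 in the positive pairs, -0.77 for Trp53inp1 with Plk3 and -0.66 for Plk2 with Abhd4. Of all tested genes, 0.0177% had an r to Cdkn1a as high as that of Sesn1. The share with an r to the member as strong and of the same sign was 0.0471% for Bbc3 with Gtse1, 0.489% for Plk2 with Abhd4, 0.495% for Ccng1 with Rrm2b and 1.16% for Bbc3 with Tap1. It was 2.17% for Trp53inp1 with Plk3 and 4.81% for Trp53inp1 with Dram1. Each of these shares counts the other target itself. Gtse1 had 8 to 42 counts per library, Dram1 17 to 66 and Bbc3 48 to 96, so their pairs rest on low counts. The calls of the 7 pairs were not repeated with title number or the Xist class in the centring, with TPM or with a library left out.

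Across all genes of at least 5 CPM outside the lists (11270 genes), the 3 whose level was most like that of Cdkn1a over the 22 libraries were Sh3bp2 (Spearman rho 0.79), Fam120c (0.76) and Galnt15 (0.76). For Plk2 they were Btg1 (0.84), Nanos1 (0.83) and Mettl6 (0.81). These likenesses describe libraries that share their tissue and processing and were not tested.

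None of the genes that act on p53 were called by edgeR in any comparison, where at most 0.106% of all genes were. Of 19 such genes 18 were tested, and in HOM against WT 11 had a fitted value above 0, 7 below, and 1 (Atr; 5.56%) an unadjusted p below 0.05, where 5.91% of all genes did. In HET against WT 3 of 18 (16.7%) had such a p, where 3.41% of all genes did, and they were Ppp1r13l, an inhibitor of p53 (log2 fold change 0.32), Ppm1d, a phosphatase that p53 induces and that switches p53 off (0.14), and Trp63, a relative of p53 (-0.29). In HOM against HET 3 of 18 (16.7%) had one, where 8.8% of all genes did: Trp73, another relative of p53 (0.39), Ppp1r13l (-0.34) and Ppm1d (-0.11). Both comparisons share the HET libraries, and these 4 genes were named after their values were seen. Trp53, which encodes p53, averaged 21.1 ± 1.76 CPM in HOM libraries, 20.6 ± 1.26 CPM in HET libraries and 19.8 ± 0.617 CPM in WT libraries (SD, n = 10, 6 and 6). The log2 fold change of Trp53, HOM against WT, was 0.09 (SE 0.050, edgeR adjusted p = 0.815). Mdm4, the partner of Mdm2, averaged 39.8 ± 4.04 CPM in HOM libraries, 41.3 ± 4.09 CPM in HET libraries and 41.3 ± 1.76 CPM in WT libraries, and HOM 3 was its highest library, at 50.2 CPM. The kinases that act ahead of p53 included Atr, at a log2 fold change of -0.15, and Chek2, at 0.17, with edgeR adjusted p-values of 0.815 each. Trp53bp1, which binds p53 and marks broken DNA, had a log2 fold change of 0.05. Cdkn2a, the source of the Mdm2 inhibitor ARF, was at 9 counts or fewer in every library and was not tested.

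The list of 32 other p53 targets gave no call either, by edgeR, DESeq2 or limma. Sesn2, which p53 is also known to induce, was not in that list. It was counted in the ATF4 list only, and edgeR called it in HOM against WT. In HOM against WT 0 of 32 were called, where 0.0943% of all genes were. An unadjusted p below 0.05 was found for 1 (Psrc1; 3.13%), where 5.91% of all genes had one. Of the 32, 15 had a fitted value above 0 and 17 below, and the median log2 fold change was -0.004. The 4 smallest p-values belonged to Psrc1, a spindle protein (log2 fold change -0.37, edgeR unadjusted p = 0.0111, adjusted p = 0.758), Rrm2b (-0.11), Polk, a translesion DNA polymerase (0.10), and Plk3 (0.10). In HET against WT 0 of 32 were called (0% of all genes), with 1 (Fdxr) at an unadjusted p below 0.05 (3.41% of all genes). In HOM against HET 0 were called (0.106% of all genes), with 0 at that p (8.8% of all genes).

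Some genes listed for the ATF4 response, the other stress pathway compared, differed between genotypes in the same libraries. ATF4 is the factor that the integrated stress response raises when translation is impaired. Whether ATF4 acts on each listed gene was not tested. In HOM against WT 10 of the 25 listed genes were called, where 0.0943% of all tested genes were, and all 10 were higher in HOM. The median log2 fold change of the list was 0.25. The called genes were Cdsn, Fgf21, Stbd1, Slc7a1, Adm2, Aldh18a1, Atf4, Chac1, Gdf15 and Sesn2. Of these, Fgf21, Adm2 and Gdf15 had at most 4 counts in any WT or HET library. They passed the low-count filter only through HOM libraries, where they are high. Adm2 passed it in 16 of the 22 fits that left out a library. Atf4 itself averaged 90.6 ± 5.36 CPM in HOM libraries, 85.5 ± 3.86 CPM in HET libraries and 77.3 ± 2.98 CPM in WT libraries (SD), a log2 fold change of 0.23 in HOM against WT (SE 0.038, edgeR adjusted p = 0.00461). Sesn2, which p53 is also known to induce, averaged 24.3 ± 2.27 CPM in HOM libraries, 20.5 ± 0.566 CPM in HET libraries and 20.01 ± 1.40 CPM in WT libraries, and its log2 fold change in HOM against WT was 0.28 (SE 0.054, edgeR adjusted p = 0.0285). That call was lost in 9 of 22 fits that left out a library (HOM 1, 4, 5, 6 or 7, or WT 1, 3, 4 or 5). In HOM against HET 7 of 25 were called (0.106% of all genes), and in HET against WT 0 (0% of all genes). The list was drawn up with earlier results of these libraries known, so neither its count of calls nor its direction is independent evidence.

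**Figure D5:**
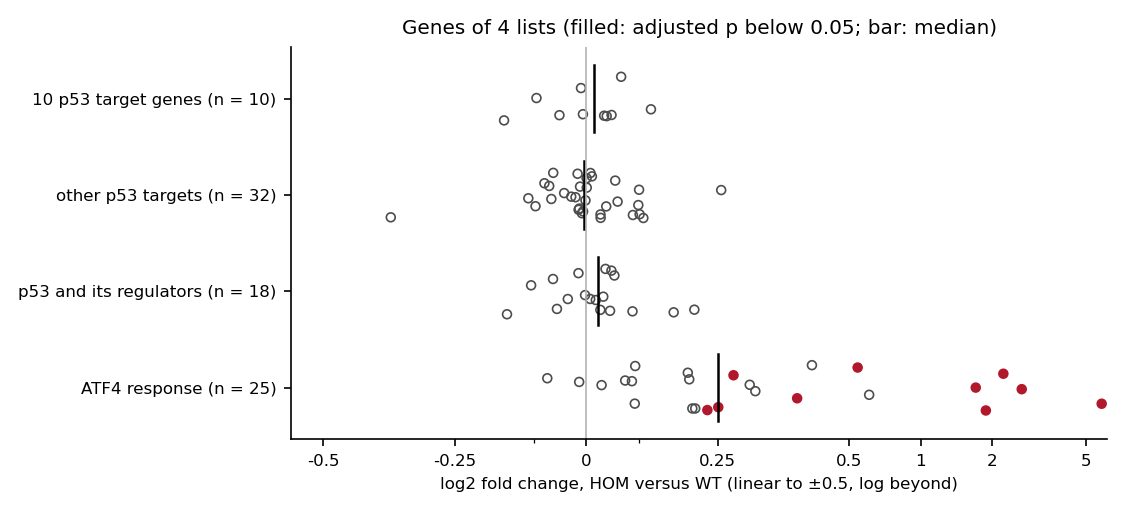
Log2 fold changes, HOM versus WT, of the tested genes of 4 lists (circles; filled where the edgeR adjusted p is below 0.05; bars are medians); the axis is linear to 0.5 in either direction and logarithmic beyond. The 10 p53 target genes, the 32 other p53 targets and the 18 p53 regulators hold no filled circle. The ATF4 list, drawn up with earlier results of these libraries known, holds 10, among them Sesn2, which p53 is also known to induce. The farthest ATF4 circle is Fgf21, which had no counts in WT libraries, so its place depends on the prior count of the fit.

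Because Plk2 is also an activity-regulated gene, 11 immediate early genes were read in the same fit. They share their libraries and may vary together, so they are not 11 independent observations. By edgeR 0 were called in any comparison, where at most 0.106% of all genes were. In HET against WT all 11 had a fitted value above 0, 8 with an unadjusted p below 0.05 (3.41% of all genes had such a p), but 0 were called by edgeR, DESeq2 or limma, and their median log2 fold change was 0.46. In HOM against HET, which shares the HET libraries, 10 of 11 had a fitted value below 0, 7 with an unadjusted p below 0.05 (8.8% of all genes), and the median was -0.45, with a smallest edgeR adjusted p of 0.0905. In HOM against WT 8 were above 0 and 3 below, 1 (Egr2, which was highest in HOM 3) had an unadjusted p below 0.05 (5.91% of all genes), and the median was 0.022. Fos averaged 22.1 ± 8.66 CPM in HET libraries and 12.7 ± 1.69 CPM in WT libraries (SD, n = 6 each), with an edgeR adjusted p above 0.999. The log2 fold changes of Arc, Junb and Ier2 were 0.24, 0.46 and 0.38, and that of Plk2, given above, was 0.06.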

How the data were processed

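For each of 22 libraries the authors deposited a gene table of expected counts, TPM and FPKM. Bowtie2 2.2.0 and RSEM 1.2.12 were used, per the submitters' processing notes. The genome build, the annotation and the counting strand were not given in the sources used here. Libraries were polyA-selected with a stranded kit, per the labels' protocols. The deposited expected counts (14.4% to 16.2% of values per library not whole) were rounded. The deposited TPM, which the authors' RSEM run scaled to transcript length, served for levels between genes and an alternative test. IDs were named from a gene name table (37607 of 38924 matched), with chromosomes from GENCODE M21.

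Genes were filtered with filterByExpr, scaled by TMM and fitted with edgeR 4.0.16 in R 4.3.3 (quasi-likelihood, robust, all 22 libraries). Standard errors were derived from the F statistics. Alternatives were DESeq2 1.42.0, limma 3.58.1 on log2(TPM + 1) and log2(TPM + 0.1), upper quartile scaling, no filter, only the genotypes compared, title number or Xist as covariates, and each library left out. The fit was tested on simulated data. The members and lists were chosen with earlier results of these data known. Named were the members; Trp53, Mdm4 and the 3 other regulators with the smallest p in HOM against WT; every called gene and the 4 with the smallest p of the other targets and the ATF4 list; Fos, Arc and 2 more immediate early genes; and the 3 genes most like Cdkn1a and Plk2. Replicate numbers follow the order of deposition. The promoter search, the Xist classes and the correlations between members were chosen after seeing the data. One gene of the Schwann cell marker list is not reported here.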

Additional observations from a re-analysis of the deposited data

Results flagged for a closer look

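In 6 of 98 groups of libraries tested (each named gene in each genotype), the highest library lay farther from its neighbour than Dixon's criterion allows at the 95% level; about 5% of groups are flagged by chance. Of these, 2 were among the 30 groups of the p53 target genes, both of Cdkn1a: HOM 3 at 37.7 CPM, with the next HOM library at 27.0 CPM, and WT 6 at 39.3 CPM, with the next WT library at 25.6 CPM. HOM 3, the library highest for Schwann cell, fibroblast, blood and myeloid, skeletal muscle and endothelial markers, was also the highest HOM library for Mdm4, at 50.2 CPM against 41.9 CPM in the next. The others were Adm2 in WT 1 (0.0305 CPM, with no counts in the other WT libraries), Aldh18a1 in WT 4 (28.6 CPM, next 26.4 CPM) and Fos in HOM 10 (23.7 CPM, next 16.6 CPM).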

How the results depend on the processing

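In every alternative and with each library left out, 0 of 10 members were called in each comparison; the smallest adjusted p of a member over all settings was 0.480 in HOM against WT, 0.801 in HET against WT and 0.377 in HOM against HET. The members at an unadjusted p below 0.05 did change: Phlda3 in HOM against WT was lost with title number as a covariate and without WT 2 or WT 5, and Mdm2 was gained in HOM against HET under limma on log2(TPM + 1) or log2(TPM + 0.1) and without HET 2, HET 4 or HOM 10, and in HET against WT without HET 2. Genes called in HOM against WT were 28 with DESeq2 (16 with edgeR; 12 to 19 with a library left out). In HOM against HET they were 76 with DESeq2, 11 with limma on log2(TPM + 1) and 10 with title number as a covariate (18 with edgeR), and 10 (without HET 3) to 39 (without HOM 10) with a library left out. ATF4 genes called in HOM against HET were 12 with DESeq2 (7 with edgeR). Between 8 and 13 ATF4 genes were called in HOM against WT over all settings.

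Some member fold changes near 0 changed sign, all of them without a call, and the cause was not tested. Under limma on log2(TPM + 1) and log2(TPM + 0.1), the log2 fold changes that changed sign were 0.048 and 0.049 for Zmat3 in HOM against WT; 0.038 and 0.039 (Cdkn1a), 0.042 and 0.047 (Trp53inp1), 0.043 and 0.044 (Zmat3) and 0.13 and 0.17 (Bbc3) in HET against WT; and -0.00151 and -0.00156 (Bax) and -0.075 and -0.091 (Bbc3) in HOM against HET. With title number as a covariate they were 0.048 (Bbc3, HET against WT) and 0.11 (Cdkn1a), -0.012 (Bax), -0.0093 (Bbc3) and 0.00035 (Plk2) in HOM against HET. With Xist as a covariate they were -0.018 (Eda2r, HOM against WT), 0.010 (Bbc3, HET against WT) and 0.0072 (Plk2, HOM against HET). With a library left out, the ranges that crossed 0 in HOM against WT were -0.19 to 0.064 (Cdkn1a), -0.064 to 0.11 (Eda2r), -0.030 to 0.017 (Zmat3) and -0.014 to 0.14 (Bbc3). In HET against WT they were -0.085 to 0.14 (Cdkn1a), -0.16 to 0.032 (Trp53inp1), -0.038 to 0.0091 (Zmat3) and -0.086 to 0.066 (Bbc3). In HOM against HET they were -0.0028 to 0.050 (Ccng1), -0.19 to 0.0019 (Trp53inp1), -0.016 to 0.017 (Bax), -0.0055 to 0.023 (Zmat3) and -0.059 to 0.012 (Plk2).

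The 3 correlated pairs of members kept their sign throughout but lost the adjusted call with title number or the Xist class in the centring (r = 0.65, 0.63 and 0.68 with the Xist class), with TPM and without HET 3; that of Ccng1 and Eda2r was also lost without HOM 8, HOM 9 or HOM 10. With a library left out, r ranged from 0.65 to 0.77 (Ccng1 and Trp53inp1), 0.66 to 0.76 (Trp53inp1 and Eda2r) and 0.70 to 0.81 (Ccng1 and Eda2r). Of the named ATF4 genes, Aldh18a1 and Sesn2 lost their call in some settings. No paired analysis was possible because the labels give no replicate numbers. Counts of 30 to 96 per library limit what can be seen for Eda2r and Bbc3.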

Other observations

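Among the genes that act on p53, Ppp1r13l had the smallest p in HOM against HET, at a log2 fold change of -0.34 (SE 0.0995, edgeR unadjusted p = 0.00234, adjusted p = 0.288), and its edgeR adjusted p in HET against WT was above 0.999. Ppm1d had an edgeR adjusted p of 0.543 in HOM against HET. Neither gene passed the test in any comparison.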
